A study of Mus musculus with 12 samples.

Results

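The genes described here are 40 assembly factors of the mitochondrial respiratory chain and ATP synthase, other than those of succinate dehydrogenase. They were found in the expression table by gene symbol, and all 40 matched 1 row each of the 43686 in the table. By the complex they help to build, 13 belong to complex I, 6 to complex III, 18 to complex IV and 3 to complex V. Assembly factors are not part of the finished enzyme. They translate, fold, modify, insert or protect its subunits and deliver its cofactors, such as heme, copper and iron-sulfur clusters, and then leave. Loss of single factors in people causes isolated deficiency of the complex concerned, and heart muscle, which relies on oxidative phosphorylation, is a tissue often affected.

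Hearts of 6 control mice (WT, Sdhaf4fl/fl without Cre) and 6 knockout mice (KO, Sdhaf4fl/fl with Ckmm-Cre) were compared by RNA-seq of ventricular wall. Sdhaf4 encodes an assembly factor of succinate dehydrogenase (complex II). Both groups carry the floxed alleles, and the labels give 2 months as the age of all mice and C57BL/6 as the strain, whereas other ages are stated in the study's own text. The labels call the mutants Sdhaf4-/-, and the Cre is named in the study's methods. Ckmm-Cre acts in striated muscle, so the other cells of the ventricle keep an intact gene and contribute to every library. Values are CPM, the counts of a gene relative to the library total after TMM scaling. Differences are log2 fold changes of KO over WT from the quasi-likelihood F test of edgeR, whose p-values were adjusted by Benjamini and Hochberg's method over the 17155 rows tested. A gene was called lower or higher at an adjusted p under 0.05.

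Library totals ran from 23747014 to 27159228 counts in WT and from 26542930 to 31393393 in KO. Sdhaf4 fell from 25.2 ± 5.80 CPM (SD, n = 6) to 2.40 ± 0.170 CPM (n = 6), a log2 fold change of -3.39 (SE 0.16, edgeR adjusted p = 1.95e-10), and every KO heart lay below every WT heart (exact two-sided permutation test, p = 0.00216, the smallest that 6 against 6 can give). Cardiomyocyte markers were abundant in all libraries (summed CPM of the 9 matched markers 48486 to 53894 in WT and 42142 to 58357 in KO), with 4 of 9 lower and 1 higher. All 8 fibroblast markers were higher in KO, and their summed CPM rose from 1419 to 1669 in WT to 2582 to 4863 in KO. Endothelial markers summed to 1341 to 1486 CPM in WT and 1534 to 1815 in KO, with 3 of 6 higher and 1 lower. Summed macrophage, smooth muscle and blood markers overlapped between the groups, and summed skeletal muscle markers had medians of 4.08 CPM in WT and 2.65 CPM in KO. Singly, 2 of 5 macrophage markers were lower and 1 higher, 2 of 4 smooth muscle markers were lower, and no blood marker was called. Whether these shifts had a part in the results below was not tested, and in such bulk samples fewer cells of a type cannot be told apart from less RNA per cell.

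Assembly factor mRNAs moved in both directions. Of the 40 factors, 39 had enough counts to be tested, and 15 of these were lower in KO, 10 were higher and 14 were not called. The lower share was 38.5%, against 25.5% of all rows tested, and the higher share was 25.6%, equal to the 25.6% of all rows. The median log2 fold change was -0.12 over the factors and 0.00 over all rows, and single factors ranged from -0.88 (Lyrm7) to 0.75 (Cox19). All 6 KO hearts lay below all 6 WT hearts for 9 factors (23.1%, against 15.2% of all rows) and above them for 4 (10.3%, against 14.9%). No factor passed the stricter pair of limits named in the study's methods, a log2 fold change beyond 1 in either direction together with an adjusted p below 0.005, which 10.2% of all rows passed in edgeR. The largest absolute log2 fold change of any factor in any of the other fits, DESeq2 included, was 0.93.

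The direction differed by complex in its counts. Of all rows tested, 25.5% were lower and 25.6% higher. Among complex I factors 7 of 13 were lower (54%) and 2 higher (15%), with a median log2 fold change of -0.18. Among complex III factors 4 of 6 were lower (67%) and 1 higher (17%), with a median of -0.24. Complex IV factors had the opposite balance, with 3 of 17 tested lower (18%) and 7 higher (41%), and a median of 0.13. Of the 3 complex V factors 1 was lower (33%) and none higher (median -0.05). These counts describe the lists, and the difference between complexes was not tested.

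**Figure D1:**
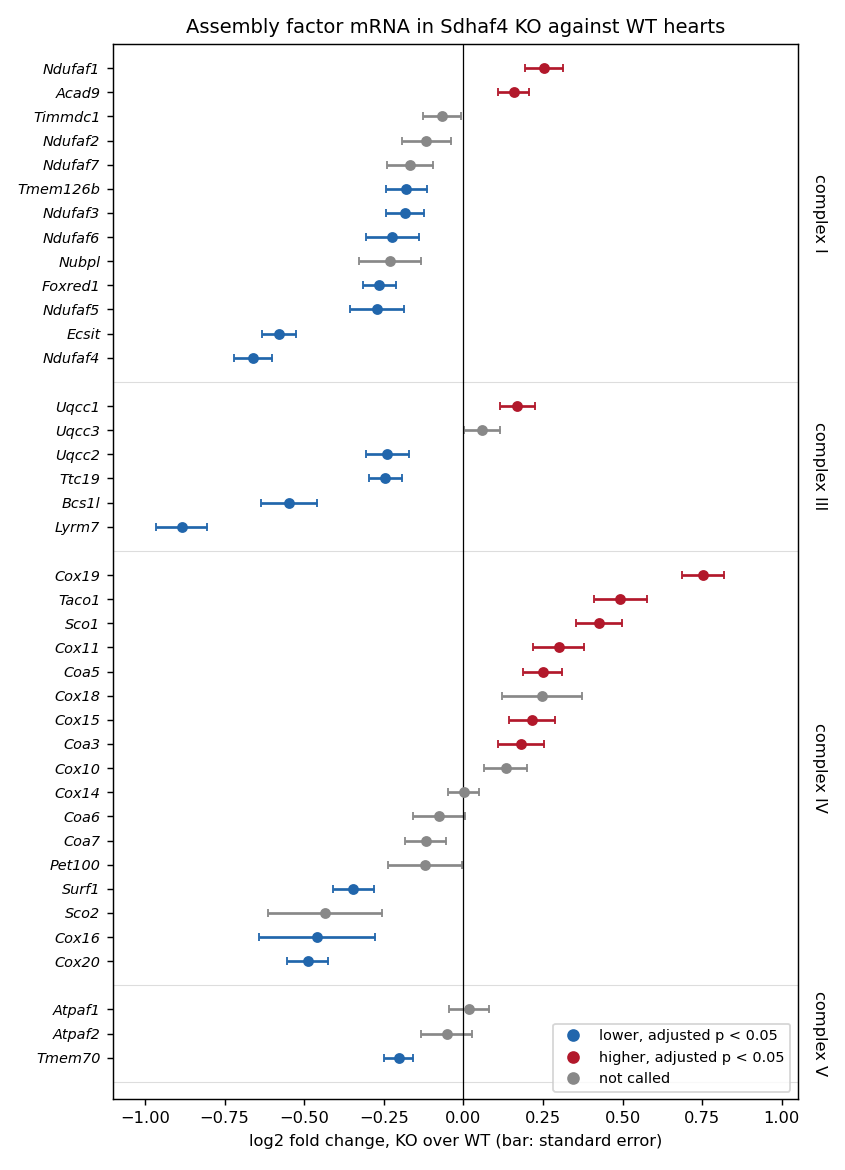
Log2 fold change of KO over WT (x axis) for the 39 tested assembly factors, grouped by the complex they build. Points are edgeR estimates, bars are standard errors, and colours mark factors called lower, called higher or not called. Complex I and III factors lie mostly to the left of 0, while 7 complex IV factors are called to the right of it, led by Cox19 at 0.75.

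Complex I is the NADH dehydrogenase, the largest enzyme of the chain. Its factors fall into those of the MCIA complex, which builds the membrane arm, those of the module that binds ubiquinone (Q module), and those that deliver cofactors or act late. The lower calls were led by Ndufaf4 and Ecsit, and the 2 higher calls, Ndufaf1 and Acad9, were both MCIA factors.

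Ndufaf4 (chromosome 4, 22941240 to 22948140, + strand of the C57BL/6NJ assembly, on which the table gives all gene positions), which acts with Ndufaf3 on the Q module, had 57.2 CPM in the lowest WT heart, a median of 60.5 and 64.4 in the highest, against 34.0, 37.7 and 43.4 in KO. The groups were far apart, and the mean dropped from 60.8 ± 3.05 to 38.5 ± 3.38 CPM (SD, n = 6 each), a log2 fold change of -0.66 (SE 0.06, edgeR adjusted p = 1.17e-07). Ndufaf3 itself was lower by a smaller amount, at -0.18 (edgeR adjusted p = 0.0177). Ndufaf5, which hydroxylates an arginine of the Q module subunit Ndufs7, ranged from 15.6 to 22.4 CPM in WT (median 18.8), and KO hearts had 14.7 to 17.7 (median 15.5). Its ranges overlapped, and the mean moved from 19.1 ± 2.43 to 15.8 ± 1.01 CPM (log2 fold change -0.27, SE 0.08, edgeR adjusted p = 0.0122). Ndufaf6 was at -0.22 (edgeR adjusted p = 0.0316), a call lost in 6 of the fits without 1 library. Ndufaf7, a methyltransferase, had a log2 fold change of -0.17 and was not called (edgeR adjusted p = 0.0661), and it was called (edgeR adjusted p = 0.00112) without KO replicate 3, the only KO heart above the WT range. Thus 4 of the 5 Q module factors were called lower (80%, against 25.5% of all rows) and none higher, and the groups were apart for Ndufaf4 alone.

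Ecsit (chromosome 9, 20130434 to 20144617, - strand of C57BL/6NJ), an MCIA member that is also known from signalling by innate immune receptors, was at 68.9 to 81.0 CPM in WT (median 74.8), and KO hearts had 47.4 to 54.6 (median 51.1). No KO heart reached the WT range, and the mean fell from 75.8 ± 4.56 to 50.7 ± 2.80 CPM (log2 fold change -0.58, SE 0.05, edgeR adjusted p = 1.13e-07). Ndufaf1 went the other way, from 39.5 to 46.9 CPM in WT (median 44.9) to 49.1 to 60.2 in KO (median 51.6). All KO hearts were above all WT hearts, with means of 44.0 ± 2.91 and 52.4 ± 3.98 CPM (log2 fold change 0.25, SE 0.06, edgeR adjusted p = 0.00182). Acad9, an acyl-CoA dehydrogenase relative that works with Ndufaf1 and Ecsit, had 46.8 to 54.6 CPM in WT (median 48.7), and KO hearts had 53.3 to 59.1 (median 54.6). Its groups overlapped in part, since the highest WT heart reached into the KO range, and the means were 49.6 ± 2.94 and 55.4 ± 2.02 CPM (log2 fold change 0.16, SE 0.05, edgeR adjusted p = 0.0122). Tmem126b, a membrane protein of MCIA, was at -0.18 (edgeR adjusted p = 0.0287), a call lost in 6 of the fits without 1 library. Timmdc1 had 40.5 to 45.6 CPM in WT (median 43.3), and KO hearts had 37.6 to 47.2 (median 39.9), means of 43.1 ± 1.88 and 41.1 ± 3.57 CPM and a log2 fold change of -0.07 (SE 0.06, edgeR adjusted p = 0.363). So the MCIA factors, whose proteins act in one assembly, comprised 2 lower, 2 higher and 1 that was not called.

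Of the cofactor and late factors, Foxred1, a flavoprotein, was at 80.6 to 94.96 CPM in WT (median 83.7), and KO hearts had 66.2 to 79.3 (median 69.8). The ranges did not touch, and the mean went from 85.5 ± 4.99 to 71.2 ± 4.65 CPM (log2 fold change -0.26, SE 0.05, edgeR adjusted p = 0.000508). The gene lies wholly inside an unnamed row on the opposite strand that held 86.4% as many reads and had a log2 fold change of -0.12. Since the strand setting of the counting was not stated, reads of the pair cannot be told apart. Nubpl, which supplies iron-sulfur clusters, was at -0.23 (edgeR adjusted p = 0.0555) and the late chaperone Ndufaf2 at -0.12 (edgeR adjusted p = 0.220), and neither was called.

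Ndufaf4 is 1 of 2 factors whose upstream 250 bases held the letters GCGCATGCG, a form of the site bound by nuclear respiratory factor 1 (NRF1). The stretch is shown for that reason, from RefSeq on GRCm38.p6 (chr4:24897833-24898082, + strand), 5′ to 3′ and ending at the base before the gene's start, with the matched letters in capitals. The letters read on both strands, so that a pair of overlapping matches begins 113 and 112 bases before the start.
Ndufaf4: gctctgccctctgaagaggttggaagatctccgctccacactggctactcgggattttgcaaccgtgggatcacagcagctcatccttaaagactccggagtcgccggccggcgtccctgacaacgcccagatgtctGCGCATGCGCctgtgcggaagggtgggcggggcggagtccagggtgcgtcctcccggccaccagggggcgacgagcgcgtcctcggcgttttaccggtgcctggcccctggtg

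Complex III passes electrons from ubiquinol to cytochrome c. Its factors here divide into those that serve cytochrome b (Uqcc1, Uqcc2 and Uqcc3) and those that handle the Rieske iron-sulfur protein, the last catalytic subunit to enter the complex (Lyrm7, Bcs1l and Ttc19). All 3 Rieske factors fell, each with no overlap between the groups (median log2 fold change -0.55), whereas the cytochrome b factors gave 1 lower call, 1 higher call and 1 that was not called.

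Lyrm7 (chromosome 11, 55974704 to 56010094, - strand of C57BL/6NJ), the chaperone that holds the Rieske protein in the matrix, had 13.4 CPM in the lowest WT heart, a median of 14.4 and 15.1 in the highest, against 7.10, 7.53 and 8.84 in KO. This was the deepest fall of any factor, from 14.4 ± 0.548 to 7.78 ± 0.736 CPM, 0.541 of the WT level (log2 fold change -0.88, SE 0.08, edgeR adjusted p = 9.46e-08). Bcs1l, the AAA protein that moves the folded Rieske protein across the inner membrane, was at 19.7 to 22.1 CPM in WT (median 20.5), and KO hearts had 11.9 to 16.7 (median 14.1). Its KO hearts were spread more widely than its WT hearts but stayed below them, with means of 20.8 ± 1.00 and 14.2 ± 2.07 CPM (log2 fold change -0.55, SE 0.09, edgeR adjusted p = 5.67e-05). Ttc19, which clears fragments of the Rieske protein after its insertion, was at 46.3 to 50.6 CPM in WT (median 47.6), and KO hearts had 37.7 to 43.7 (median 40.2). The mean went from 47.9 ± 1.596 to 40.5 ± 2.52 CPM (log2 fold change -0.24, SE 0.05, edgeR adjusted p = 0.000663), again with no overlap. Ttc19 shares 12764 bases with Ncor1 on the opposite strand, which had 376% as many reads and a log2 fold change of -0.13, and reads of the pair cannot be told apart either.

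Uqcc2, which stabilises newly made cytochrome b, ranged from 91.5 to 118 CPM in WT (median 103), and KO hearts had 79.1 to 98.3 (median 87.1). The ranges overlapped, and the mean dropped from 104 ± 9.33 to 87.9 ± 7.48 CPM (log2 fold change -0.24, SE 0.07, edgeR adjusted p = 0.00634). Its partner Uqcc1 was at 115 to 140 CPM in WT (median 127), and KO hearts had 133 to 154 (median 144). Here the KO hearts were the higher ones, with overlap, and the means were 128 ± 8.84 and 144 ± 8.0 CPM (log2 fold change 0.17, SE 0.05, edgeR adjusted p = 0.0146). Uqcc3, which acts after them, had 37.5 to 41.4 CPM in WT (median 40.3), and KO hearts had 36.4 to 44.3 (median 42.0), with means of 39.7 ± 1.76 and 41.3 ± 3.05 CPM and a log2 fold change of 0.06 (SE 0.06, edgeR adjusted p = 0.416).

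The upstream stretches of the 3 Rieske factors are shown because these genes fell together. Each is 250 bases from RefSeq on GRCm38.p6, 5′ to 3′ on the gene's strand, for Lyrm7 chr11:54860598-54860847 (- strand), for Bcs1l chr1:74588039-74588288 (+ strand) and for Ttc19 chr11:62281223-62281472 (+ strand). Capitals mark CCGGAAGT, a form of the ETS family site read by GABPA, in Bcs1l, and the NRF1 letters GCGCATGCG in Ttc19. The Lyrm7 stretch held none of the 6 motifs searched.
Lyrm7: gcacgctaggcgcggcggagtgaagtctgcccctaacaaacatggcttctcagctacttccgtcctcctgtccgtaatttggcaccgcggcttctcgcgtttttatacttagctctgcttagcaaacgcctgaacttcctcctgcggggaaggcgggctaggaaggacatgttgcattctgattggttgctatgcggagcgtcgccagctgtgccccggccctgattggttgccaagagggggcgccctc
Bcs1l: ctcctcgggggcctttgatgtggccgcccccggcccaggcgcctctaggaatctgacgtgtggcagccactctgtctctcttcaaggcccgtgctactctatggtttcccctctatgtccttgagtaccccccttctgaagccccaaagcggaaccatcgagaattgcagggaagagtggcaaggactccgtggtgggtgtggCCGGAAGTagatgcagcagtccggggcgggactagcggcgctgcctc
Ttc19: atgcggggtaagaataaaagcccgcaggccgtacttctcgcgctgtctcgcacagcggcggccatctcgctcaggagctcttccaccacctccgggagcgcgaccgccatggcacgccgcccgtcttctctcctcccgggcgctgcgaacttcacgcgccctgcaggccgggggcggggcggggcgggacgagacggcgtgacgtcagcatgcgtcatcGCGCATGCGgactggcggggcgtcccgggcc

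**Figure D2:**
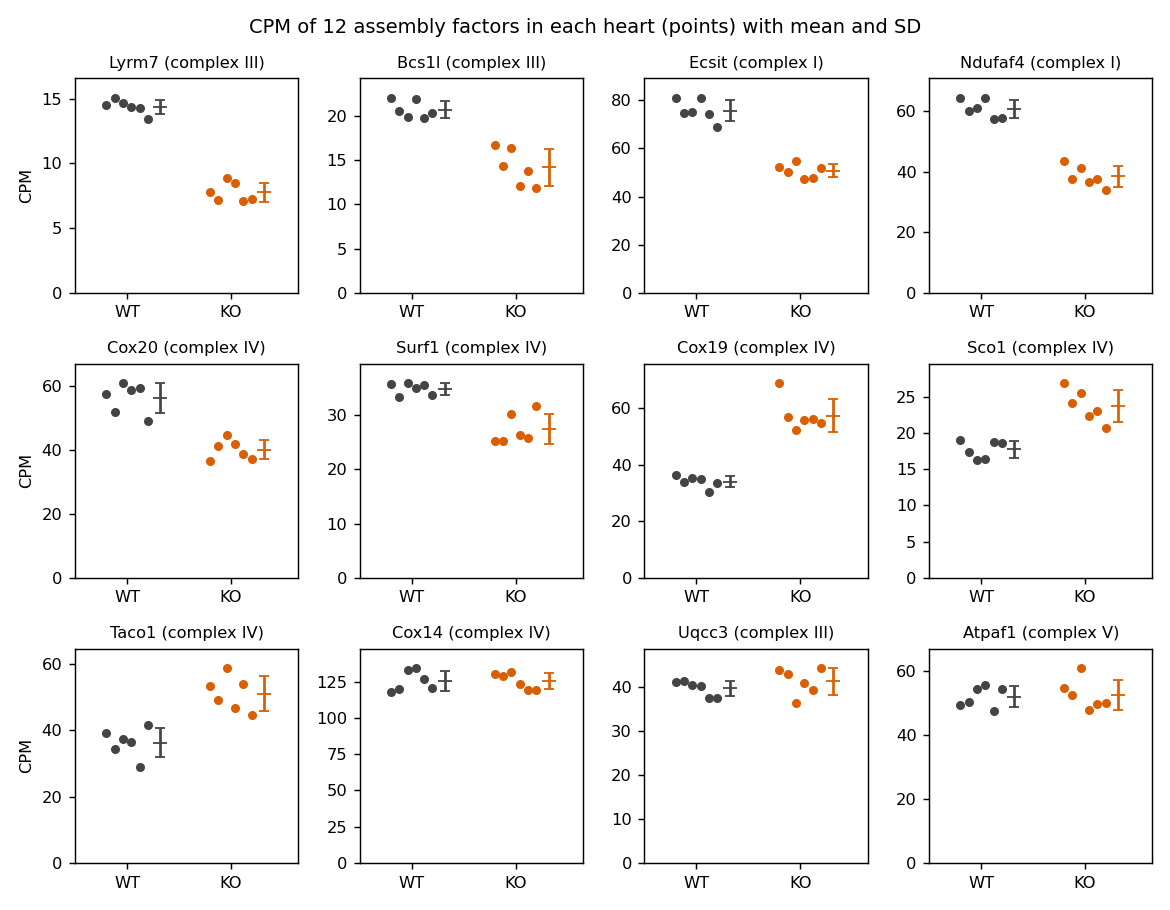
CPM (y axis, from 0) of 12 assembly factors in each of the 6 WT and 6 KO hearts, with the group mean and SD beside the points. The groups are apart for the first 9 factors, higher in KO for Cox19, Sco1 and Taco1, and they overlap for Cox14, Uqcc3 and Atpaf1, the factors with the largest p in complexes IV, III and V.

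Complex IV, cytochrome c oxidase, needs heme a and copper in its mitochondrially made subunits COX1 and COX2. Factors that deliver copper or serve COX1 held 5 of the 7 higher calls, and the lower calls were Surf1, a COX1 factor, and the COX2 factors Cox20 and Cox16.

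Cox19 (chromosome 5, 149626867 to 149645742, - strand of C57BL/6NJ), a small protein of the intermembrane space that takes part in copper handling, had 30.5 CPM in the lowest WT heart, a median of 34.4 and 36.3 in the highest, against 52.2, 56.0 and 69.0 in KO. This was the largest rise of any factor, from 34.1 ± 2.02 to 57.5 ± 5.87 CPM, 1.69-fold (log2 fold change 0.75, SE 0.07, edgeR adjusted p = 7.77e-08). Sco1, a copper chaperone for COX2, was at 16.2 to 19.0 CPM in WT (median 18.0), and KO hearts had 20.8 to 26.9 (median 23.6). Its groups did not overlap either, and the mean rose from 17.7 ± 1.22 to 23.8 ± 2.21 CPM (log2 fold change 0.42, SE 0.07, edgeR adjusted p = 0.000108). Cox11, which supplies copper to COX1, rose by 0.30 (edgeR adjusted p = 0.00441). The other 2 tested copper factors were not called and had negative estimates, Sco2 at -0.43 (edgeR adjusted p = 0.0524, on 59 to 116 counts a library) and Coa6 at -0.08 (edgeR adjusted p = 0.463). Sco2, a paralog of Sco1 in the same step, also lies over Ncaph2, a row on the other strand with many more reads. On the same strand Sco2 shares 1888 bases with Tymp, which had 15.9% as many reads. How reads shared by such rows were counted was not stated, so the low Sco2 count need not mean scarce mRNA. Cox17, the chaperone that hands copper to Sco1, Sco2 and Cox11, had 2 counts in all 12 libraries together and was not tested. Its row overlaps Popdc2 and Gm21987 on the same strand, and its mRNA level cannot be read from this table.

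Heme a is made by Cox10 and then Cox15. Cox15 was higher at 0.22 (edgeR adjusted p = 0.0180), a call that was lost without WT replicate 5 (edgeR adjusted p = 0.0556), and Cox10 at 0.13 was not called (edgeR adjusted p = 0.108).

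Among the factors for COX1, Taco1 (chromosome 11, 112693701 to 112701252, + strand of C57BL/6NJ), which activates translation of its mRNA, was at 29.0 to 41.5 CPM in WT (median 36.9), and KO hearts had 44.5 to 58.8 (median 51.2). No KO heart fell into the WT range, and the mean rose from 36.3 ± 4.32 to 51.1 ± 5.25 CPM (log2 fold change 0.49, SE 0.08, edgeR adjusted p = 9.88e-05). Surf1, which acts when heme a enters COX1 and whose loss in people is a known cause of Leigh syndrome, moved the other way, from 33.5 to 36.0 CPM in WT (median 35.3) to 25.3 to 31.8 in KO (median 26.1). The WT hearts were the most alike of any factor (coefficient of variation 3.08%), and the mean fell from 34.9 ± 1.07 to 27.5 ± 2.80 CPM (log2 fold change -0.35, SE 0.06, edgeR adjusted p = 0.000249). Surf1 shares 164 bases with Surf2, which had 62.5% as many reads and a log2 fold change of 0.01. Coa3, which holds new COX1, was at 0.18 (edgeR adjusted p = 0.0486), a call lost without any 1 of 8 libraries (WT replicates 2, 5 and 6 and KO replicates 1, 2, 3, 4 and 6), with adjusted p from 0.0564 to 0.123. Its partner Cox14 had 118 to 134 CPM in WT (median 123), and KO hearts had 119 to 132 (median 126). The means were 125 ± 6.98 and 125 ± 5.56 CPM, with a log2 fold change of 0.00 (SE 0.05, edgeR adjusted p = 0.984).

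The COX2 factors gave 2 lower calls and no higher call. Cox20 (chromosome 1, 190609740 to 190613303, + strand of C57BL/6NJ), the chaperone of new COX2, was at 48.9 to 60.9 CPM in WT (median 58.2), and KO hearts had 36.5 to 44.6 (median 40.1). The groups were apart, and the mean fell from 56.2 ± 4.77 to 40.1 ± 3.07 CPM (log2 fold change -0.49, SE 0.07, edgeR adjusted p = 8.94e-06). An unnamed row on the opposite strand of Cox20 had 45.2% as many reads and a log2 fold change of -0.25. Cox16 had few counts, at 2.60 to 5.12 CPM in WT (median 4.36), and KO hearts had 1.98 to 3.85 (median 3.13). Its groups overlapped, with means of 4.22 ± 0.935 and 3.06 ± 0.608 CPM (log2 fold change -0.46, SE 0.18, edgeR adjusted p = 0.0425), and the call was lost in 10 of the 12 fits without 1 library, in every one but those without WT replicate 6 and without KO replicate 5. The Cox16 row overlaps Gm20498 on the same strand over its whole span, and Gm20498 had 2.53% as many reads. How reads shared by such rows were counted was not stated, so the low Cox16 count need not mean scarce mRNA. Cox18, which exports the tail of COX2, had a log2 fold change of 0.25 and was not called (edgeR adjusted p = 0.114).

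Coa5, needed early in assembly, was at 112 to 146 CPM in WT (median 130), and KO hearts had 143 to 165 (median 155). The ranges met only at their edges, and the mean rose from 130 ± 11.9 to 155 ± 8.63 CPM (log2 fold change 0.25, SE 0.06, edgeR adjusted p = 0.00252). Coa7 at -0.12 (edgeR adjusted p = 0.136) and Pet100 at -0.12 (edgeR adjusted p = 0.418) were not called.

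The stretches upstream of Cox19 and Sco1, the copper factors that rose most, are given for comparison with those of the factors that fell. They are 250 bases each from RefSeq on GRCm38.p6, 5′ to 3′ on the gene's strand, chr5:139345167-139345416 (- strand) for Cox19 and chr11:67052420-67052669 (+ strand) for Sco1. Neither held any of the 6 motifs, so that no letters are in capitals.
Cox19: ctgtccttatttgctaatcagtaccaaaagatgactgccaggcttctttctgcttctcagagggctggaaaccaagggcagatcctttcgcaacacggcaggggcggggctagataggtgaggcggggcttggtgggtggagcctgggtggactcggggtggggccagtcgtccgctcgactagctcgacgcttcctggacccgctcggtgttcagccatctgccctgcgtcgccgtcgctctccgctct
Sco1: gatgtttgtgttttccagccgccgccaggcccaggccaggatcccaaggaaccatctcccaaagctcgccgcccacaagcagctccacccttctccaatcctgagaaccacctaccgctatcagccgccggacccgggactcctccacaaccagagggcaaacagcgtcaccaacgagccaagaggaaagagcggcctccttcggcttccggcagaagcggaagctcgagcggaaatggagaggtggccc

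Complex V is the ATP synthase. Tmem70, which helps to build its ring of c subunits, was at 103 to 113 CPM in WT (median 110), and KO hearts had 87.7 to 101 (median 95.3). The groups did not overlap, although the fall was small, from 110 ± 3.74 to 95.2 ± 4.59 CPM (log2 fold change -0.20, SE 0.04, edgeR adjusted p = 0.00110). The chaperones of the catalytic F1 head were not called. Atpaf1, for the beta subunit, had 47.5 to 55.6 CPM in WT (median 52.3), and KO hearts had 47.6 to 60.9 (median 51.2), with means of 51.9 ± 3.27 and 52.6 ± 4.73 CPM and a log2 fold change of 0.02 (SE 0.06, edgeR adjusted p = 0.832). Atpaf2, for the alpha subunit, was at -0.05 (edgeR adjusted p = 0.609), and Gid4, which overlaps it on the opposite strand, had 222% as many reads and a log2 fold change of -0.64.

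The size of the called shifts differed somewhat among the KO hearts. The factors were called from these same hearts, so a common sign in KO is no separate result. Over the 7 complex I factors called lower, the median log2 CPM relative to the WT mean was -0.13 in KO replicate 3 and between -0.31 and -0.26 in the other 5 KO hearts. For the 7 complex IV factors called higher it was 0.57 in KO replicate 1 and 0.23 to 0.36 in the others. The KO hearts closest to the WT mean were replicates 1, 3 and 6, each for 7 of the 25 called factors. KO replicate 1 was also the farthest from it for 7, more than any other KO heart. The coefficient of variation between hearts had a median of 7.23% in WT and 8.61% in KO.

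**Figure D3:**
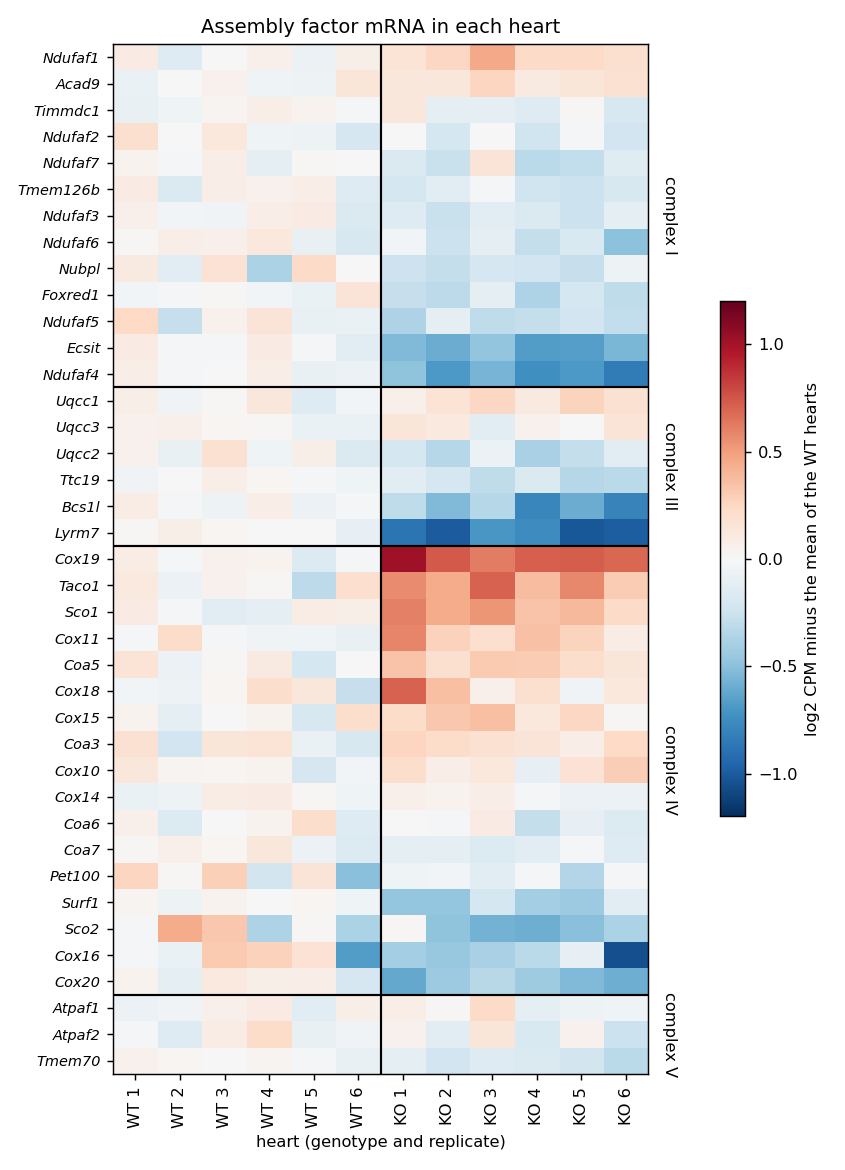
Log2 CPM of the 39 tested factors (rows, by complex) in each heart (columns), minus the mean of the 6 WT hearts, in red where higher and blue where lower. Lyrm7, Ecsit and Ndufaf4 are blue and Cox19, Taco1 and Sco1 red in all 6 KO hearts, and KO replicate 1 has the deepest red for Cox19 (69.0 CPM).

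Levels between genes were compared on the deposited FPKM, which is scaled by gene length. In WT hearts the most abundant factors were Uqcc2 (204 ± 15.5 FPKM), Cox14 (173 ± 7.77), Tmem70 (103 ± 3.27) and Uqcc1 (100.5 ± 6.99), of which Tmem70 and Uqcc1 differed by less than their spread. The lowest values among the tested ones were those of Sco2 (2.76 ± 0.661 FPKM), Cox16 (5.44 ± 1.13), Cox18 (7.93 ± 0.797) and Sco1 (9.08 ± 0.686). Sco2 and Cox16 overlap other rows on the same strand, so their low values need not mean scarce mRNA. In order of FPKM among the 40, Cox19 went from place 15 in WT to place 8 in KO and Taco1 from 25 to 13, while Ecsit went from 9 to 17 and Lyrm7 from 33 to 37.

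A list of nuclear subunits that these factors put together was read in the same fit. For complex IV it held the isoforms Cox4i1, Cox6a2, Cox7a1 and Cox8b, and other isoforms of these subunits were not read. Of 72 subunits, 68 were lower (94%, against 25.5% of all rows) and 2 higher (2.8%, against 25.6%), with a median log2 fold change of -0.45. The higher ones were Ndufc2 and Atp5if1, the latter an inhibitor of the ATP synthase that is counted here under complex V and is not a structural subunit. By complex, 34 of 36 subunits of complex I (median -0.44), 9 of 9 of complex III (-0.33), 11 of 11 of complex IV (-0.52) and 14 of 16 of complex V (-0.43) were lower. Set beside these, the factors had medians of -0.18, -0.24, 0.13 and -0.05 for the same complexes. For complex IV, 11 subunits lower and none higher stood against 3 factors lower and 7 higher. The difference between subunits and factors was not tested.

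**Figure D4:**
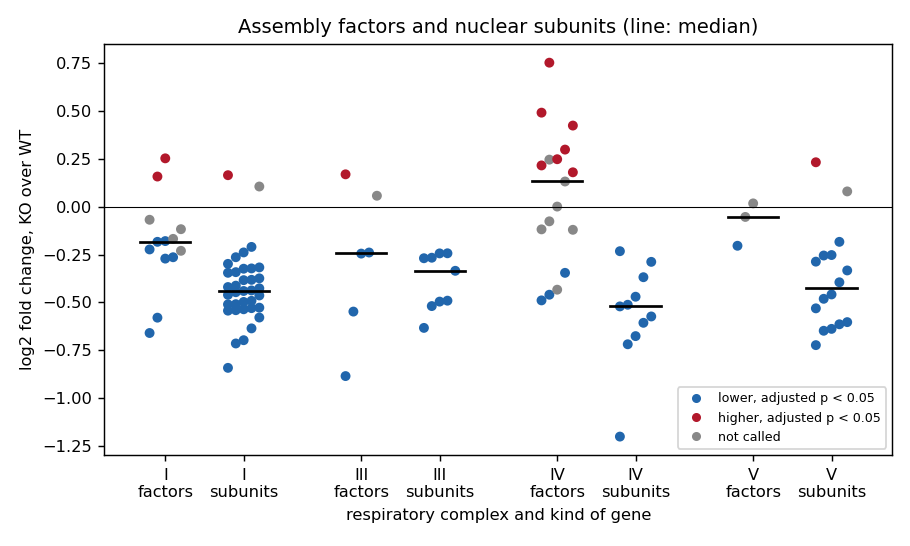
Log2 fold change of KO over WT (y axis) for assembly factors and nuclear subunits of each complex (x axis), with 1 point per gene, coloured by call, and a line at the median. The listed subunits of complex IV are all below 0 with a median of -0.52, and its factors are spread from -0.49 to 0.75 around a median of 0.13.

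A further list of 27 assembly factors was read for comparison, of which 24 were tested. In it 13 were lower (54%, against 25.5% of all rows) and 2 higher (8.3%, against 25.6%), with a median log2 fold change of -0.23. Members of this list past an absolute log2 fold change of 0.5 were all lower. For complex IV they were Smim20 at -0.68, which stabilises new COX1, Tmem177 at -0.65, a partner of Cox20, Lrpprc at -0.64, which stabilises mitochondrial mRNAs, Coa4 at -0.61 and Chchd7 at -0.56. For complex V they were Dmac2l (listed as Atp5s) at -0.82 and Fmc1 at -0.68, a partner of Atpaf2. The higher ones were Dmac2 at 0.20, a factor of complex I, and Higd1a at 0.19. Complex IV factors in this list thus had 6 of 13 lower and 1 higher, another balance than in the 18 above.

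Regulators of nuclear genes for mitochondrial proteins were mostly not called. The coactivators Ppargc1a and Ppargc1b were at -0.03 and 0.22, Esrrg at -0.12, Nrf1 at 0.01 and Tfam at 0.10, while Esrra was not analysed here. Gabpa, a subunit of the ETS factor also called NRF2, was lower at -0.23 (edgeR adjusted p = 0.0118).

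Known motifs of such regulators were sought in the 250 bases before the start of the 34 factors with a RefSeq entry, on both strands. GCGCATGCG (NRF1) was in 2 of 34 (5.88%), Ndufaf4 and Ttc19, both lower in KO, against 1.45% of 32851 promoters. CCGGAAGT (ETS) was in 3 of 34 (8.82%), Bcs1l, Cox10 and Timmdc1, against 2.88%. AAGGTCA, a site of the estrogen-related receptors, was in Uqcc3 alone (2.94%, against 4.08%). ACGTGC, a form of the hypoxia response element, was in Atpaf2 and Uqcc3 (5.88%, against 4.92%). AAGATGGCG (YY1) and TGATGNAAT (a site of ATF4) were in none, against 0.606% and 0.816%. None of the 9 higher factors searched held any of the 6 motifs, and 3 of the 13 lower factors held 1. Among the 12 searched factors that were not called, Cox10, Timmdc1, Uqcc3 and Atpaf2 held at least 1, so the motifs were not particular to lower factors. For 26 of the 34 factors the bases just after the start were found in a GENCODE transcript of the gene. Timmdc1 and Atpaf2 were among these, but Cox10 and Uqcc3 were not, so the windows of Cox10 and Uqcc3 are less sure. Different motifs did not overlap in the stretches shown. A match describes letters only, and its absence says nothing about a factor beyond this window.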

How the data were processed

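Polyadenylated RNA of ventricular wall was sequenced from 6 WT and 6 KO mice, taken as separate animals from their labels. The authors counted reads per gene with HTSeq and deposited the raw counts. The authors' processing notes name HISAT2 2.0.5 and mm10, but the identifiers and positions in the table are of the C57BL/6NJ assembly. The strand setting of the counting was not stated. The deposited FPKM values are scaled by library size and a gene length that is not always the one in the table, and were used only to compare levels between genes. Also deposited by the authors were group means of FPKM, group means of scaled counts (a signal) and their own log2 fold changes and p-values, none of which were used.

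Counts were fitted in R 4.3.3 with edgeR 4.0.16 (filterByExpr, TMM, robust quasi-likelihood test, genotype alone as the term) over 17155 of 43686 rows, with Benjamini-Hochberg adjustment over all rows tested. Standard errors were derived from the fold change and its F statistic. Unannotated loci took 9.62% to 12.5% of the counts. Hearts of a genotype differed by more than counting error, with 6.99 to 48.6 for chi-square over its degrees of freedom. On simulated counts for this comparison, 193 of 200 changed genes were recovered, with 4 false calls among 17155. Recovery at fold changes as small as those of most called factors was not tested separately. Replicate numbers did not pair the hearts.

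The 40 factors and the other lists were chosen with earlier results of these data known. Values in both groups were given for the 4 factors with the smallest p in each complex and direction among those called, and for the factor with the largest p in each complex. The other factors on the list were given with their log2 fold change. Motifs and the 250-base window were chosen after the values had been seen. Upstream sequences came from RefSeq, matched by symbol for 34 of 40 factors. Alternatives were DESeq2 size factors, library size only, DESeq2 1.42.0, limma-voom (limma 3.58.1), no filter, a minimum mean of 5 CPM, no unannotated loci, a replicate block, and each library left out.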

Additional observations from a re-analysis of the deposited data

Results flagged for a closer look

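In 8 of 80 groups of 6 hearts examined (each factor and Sdhaf4, in each genotype), 1 heart stood apart from the other 5 by Dixon's 95% limit, and chance gives about 4.0 such groups. KO replicate 3 had 60.2 CPM of Ndufaf1, against 49.1 to 52.1 in the other KO hearts, and 40.9 CPM of Ndufaf7, against 29.4 to 33.3. KO replicate 1 had 69.0 CPM of Cox19 (52.2 to 56.8 in the others), 3.12 CPM of Sco2 (2.06 to 2.38) and 2.73 CPM of Sdhaf4 (2.25 to 2.42). KO replicate 6 had 12.5 CPM of Nubpl, against 10.7 to 11.3. In KO replicate 5 Pet100 was low, at 11.2 CPM, against 13.0 to 14.1. WT replicate 2 had 27.2 CPM of Cox11, against 21.9 to 23.1 in the other WT hearts.

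Without the heart in question, Ndufaf1 stayed higher (log2 fold change 0.20, edgeR adjusted p = 0.00400), as did Cox19 (0.70, edgeR adjusted p = 4.05e-08) and Cox11 (0.35, edgeR adjusted p = 0.00160), and Sdhaf4 stayed lower (-3.43, edgeR adjusted p = 2.18e-09). Ndufaf7 (-0.25, edgeR adjusted p = 0.00112), Nubpl (-0.27, edgeR adjusted p = 0.0372) and Sco2 (-0.53, edgeR adjusted p = 0.0226) were called lower without it. Pet100 was not called either way (edgeR adjusted p = 0.657 without KO replicate 5). The cause of these values was not tested.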

How the results depend on the processing

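Over the 20 alternatives run, 12 to 17 factors were lower and 8 to 10 higher, and the median log2 fold change of the factors stayed between -0.16 and -0.09. Complex I had 5 to 8 lower calls, complex III 4, complex IV 5 to 7 higher and 2 to 4 lower, and Sdhaf4 was lower in each fit. Of the 25 called factors, 20 (12 lower and 8 higher) kept their call throughout. The calls of Coa3, Cox16, Ndufaf6, Tmem126b and Cox15 were lost in at least 1 alternative. Besides the fits without 1 library, Coa3 lost its call in DESeq2 (adjusted p = 0.0510) and without unannotated loci (edgeR adjusted p = 0.0586), and Cox16 with no filter (edgeR adjusted p = 0.0516) and in limma-voom (limma adjusted p = 0.0579). For Ndufaf6 these were no filter (edgeR adjusted p = 0.0502) and leaving out WT replicate 2, 3 or 4 or KO replicate 2, 4 or 6 (adjusted p up to 0.0636). For Tmem126b they were the block and leaving out WT replicate 1, 3 or 5 or KO replicate 1, 4 or 5 (adjusted p up to 0.0665). Cox10 was called higher without KO replicate 4 (edgeR adjusted p = 0.0235). Called lower in some fits were Sco2 (DESeq2, without unannotated loci, and without WT replicate 4 or 6 or KO replicate 1), Nubpl (without unannotated loci, and without WT replicate 2 or 4 or KO replicate 6) and Ndufaf7 (library size only, the block, and without WT replicate 4 or KO replicate 3). Cox14 and Atpaf1, near 0 in every fit, changed sign: Cox14 to -0.0078 without unannotated loci and between -0.023 and 0.017 without 1 library, and Atpaf1 between -0.034 and 0.046 without 1 library. Sco2 and Cox16 had too few counts for the minimum of 5 CPM. The causes were not tested.

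With the replicate number as a replicate block, 15 factors were lower and 10 higher, Tmem126b was no longer called (edgeR adjusted p = 0.0502) and Ndufaf7 was called lower (edgeR adjusted p = 0.0377). Same-numbered hearts did not deviate together (correlations of -0.195 to 0.0426), so the numbers pair nothing. Depth limits the precision of Sco2 and Cox16, which had 59 to 116 and 55 to 130 counts a library.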
